A study of Rattus norvegicus with 32 samples.

Results

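A set of 10 genes that mark the early steps of the oligodendrocyte lineage was followed in the rat hippocampus across maternal iron supply and intranasal insulin. They were chosen by name and sorted into stages: the precursor genes Pdgfra, Cspg4 and Vcan, the committed precursor genes Gpr17, Bcas1, Enpp6 and Myrf, and the lineage genes Olig1, Olig2 and Sox10. Each of the 10 names matched 1 row among the 32883 rows of the count table, and all 10 were among the 15439 rows with enough counts to be tested. Expression was measured by RNA sequencing in 32 wild-type pups, with 1 hippocampus per pup. The iron-sufficient control group (IS control, n = 8) came from dams without the deficient diet and got no insulin. The iron-deficient control group (ID control, n = 9) came from dams fed 3 to 6 ppm iron between gestational day 3 and postnatal day 7, and also got no insulin. The IS insulin group (n = 7) and the ID insulin group (n = 8) had the same diets as these controls, and the pups received insulin through the nose on postnatal days 8 to 21. Neither the insulin dose, nor what the controls were given, nor the strain, sex or litter of the pups is stated. P-values therefore measure the spread between these pups. The diet was given to dams, and pups that shared a dam would not be independent. P-values for the diet and for its interaction with insulin could then be too small, which was not tested.

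Oligodendrocytes, the myelin-forming cells of the brain, arise from dividing precursor cells that carry the receptor for platelet-derived growth factor A (encoded by Pdgfra) and the proteoglycan NG2 (encoded by Cspg4). When a precursor leaves the cell cycle it passes through a short committed stage, in which the receptor gene Gpr17 is switched on and later off again, before it makes myelin. In rodents these steps run through the forebrain during the first postnatal weeks, and iron is needed for them because differentiating oligodendrocytes are rich in iron-dependent enzymes. Hippocampal tissue holds all stages at once. In such bulk libraries, fewer cells of a type and less RNA per cell cannot be told apart.

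The libraries held 19619345 to 28062630 counts each, and single members had between 411 counts (Enpp6) and 8384 counts (Bcas1) in a library. Of 9 hippocampal markers 8 were present in every library, Prox1 between 61.8 and 134.7 CPM among them, while Fibcd1 ranged from 0 to 2.62 CPM. CPM here is the usual count scaled to library size. The sample titles carry a first number of unknown meaning, which was 71 for IS control, 72 for IS insulin, 73 for ID insulin and either 69 or 70 for ID control. Group and number therefore cannot be told apart except inside ID control. Collection was on postnatal day 7 or 21. Insulin-treated pups must have reached the later day, but the day of the control pups is not settled by the labels, and age and insulin cannot be told apart if they differed. The summed level of 18 myelin genes, which climbs with age in this tissue, overlapped between IS control (11140 to 15630 CPM) and IS insulin (12610 to 17040 CPM). In ID control it was 9751 to 15220 CPM and in ID insulin 11430 to 20980 CPM. The library ID insulin replicate 3 stood apart. It held the highest value of its group in 7 of the 10 members and the highest myelin sum (20980 CPM, the next being 16360 CPM), with the lowest neuron sum of its group (4902 CPM). ID insulin replicate 5 had the highest sum of 8 thalamic genes, 561.9 CPM, with 320.6 CPM next. The sum of 2 Y-linked genes ran from 0 to 105.9 CPM in IS control (median 49.7 CPM) and to 115.4 CPM in ID control (0.04 CPM). From 0 it reached 111.3 CPM in IS insulin (median 0.13 CPM) and 117.6 CPM in ID insulin (51.7 CPM). Each group thus held both sexes, in shares that were not matched.

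The effect of insulin under iron deficiency was read from ID insulin against ID control, the comparison with the most members called. Gpr17, Enpp6 and Vcan rose with insulin, the first by 1.21-fold, the second by 1.35-fold and the third by 1.16-fold. In this comparison 3 of 10 members passed an adjusted p of 0.05 (edgeR's quasi-likelihood test), against 3.82% of all 15439 genes tested. The 3 comprised 2 of 4 committed genes, 1 of 3 precursor genes and 0 of 3 lineage genes. All 10 log2 fold changes were positive, with a median of 0.13, where the median over all genes was 0.004 and 51.2% were positive. Many members vary together between libraries, so their signs are not independent, here or in the comparisons below. Without ID insulin replicates 3 and 5 the median fold change went from 0.24 to 0.15 for the committed genes and from 0.11 to 0.04 for the lineage genes, and for the precursor genes it was 0.04 with and 0.05 without them.

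Gpr17 (ENSRNOG00000025745) encodes a G protein-coupled receptor that marks precursors on their way to differentiation. Its level in ID control ran from 76.1 CPM over a median of 86.4 CPM to 99.5 CPM. In ID insulin it ran from 94.8 CPM over 105.8 CPM to 118.7 CPM. Of the 8 ID insulin libraries 6 lay above every ID control library, and the groups overlapped only between 94.8 and 99.5 CPM. The means were 106.3 ± 8.09 CPM and 87.6 ± 7.45 CPM (SD, n = 8 and 9), a log2 fold change of 0.28 (SE 0.05, adjusted p = 0.00232 by edgeR's quasi-likelihood test). Without ID insulin replicate 3 the mean was 104.5 ± 6.86 CPM (SD, n = 7). Without replicates 3 and 5 the log2 fold change was 0.23 (adjusted p = 0.0107 in the same test).

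Enpp6 (ENSRNOG00000009660) encodes a choline-specific phosphodiesterase of the cell surface and is used to find oligodendrocytes that have just begun to form. ID control libraries held 19.0 to 31.96 CPM, with a median of 25.4 CPM, and ID insulin libraries 27.5 to 42.0 CPM, with a median of 32.3 CPM. Here 4 of 8 ID insulin libraries were above every ID control library and none was below the ID control median. The means were 33.9 ± 5.14 CPM against 25.1 ± 3.95 CPM (SD, n = 8 and 9), a log2 fold change of 0.44 (SE 0.09, adjusted p = 0.00737 by edgeR's quasi-likelihood test). With replicates 3 and 5 removed it was 0.34 (adjusted p = 0.0438). Against the 5 ID control libraries of title number 69 alone it was 0.35 and missed the threshold (adjusted p = 0.109). The call was also lost with the tissue covariates (adjusted p = 0.517).

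Vcan (ENSRNOG00000029212) encodes versican, a large proteoglycan of the extracellular matrix that precursors make. It lay between 59.1 and 81.8 CPM in ID control (median 73.0 CPM) and between 76.1 and 93.3 CPM in ID insulin (median 81.1 CPM). Only 3 of 8 ID insulin libraries exceeded all ID control libraries, while 7 of 9 ID control libraries lay below all ID insulin libraries. The means were 83.7 ± 6.80 CPM against 72.0 ± 7.02 CPM (SD, n = 8 and 9), a log2 fold change of 0.22 (SE 0.06, adjusted p = 0.0344 by edgeR's quasi-likelihood test). This call was the least firm of the 3. It was lost when either ID insulin replicate 3, 5 or 6 or any of ID control replicates 2, 3, 4, 5 and 8 was left out (highest adjusted p = 0.0761), and without replicates 3 and 5 the value was 0.16 (adjusted p = 0.149). It was also lost without a count filter, in a fit of the compared groups alone and with limma voom, and over the 13 alternatives other than leaving out 1 library the adjusted p ran from 0.0157 to 0.551.

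**Figure D1:**
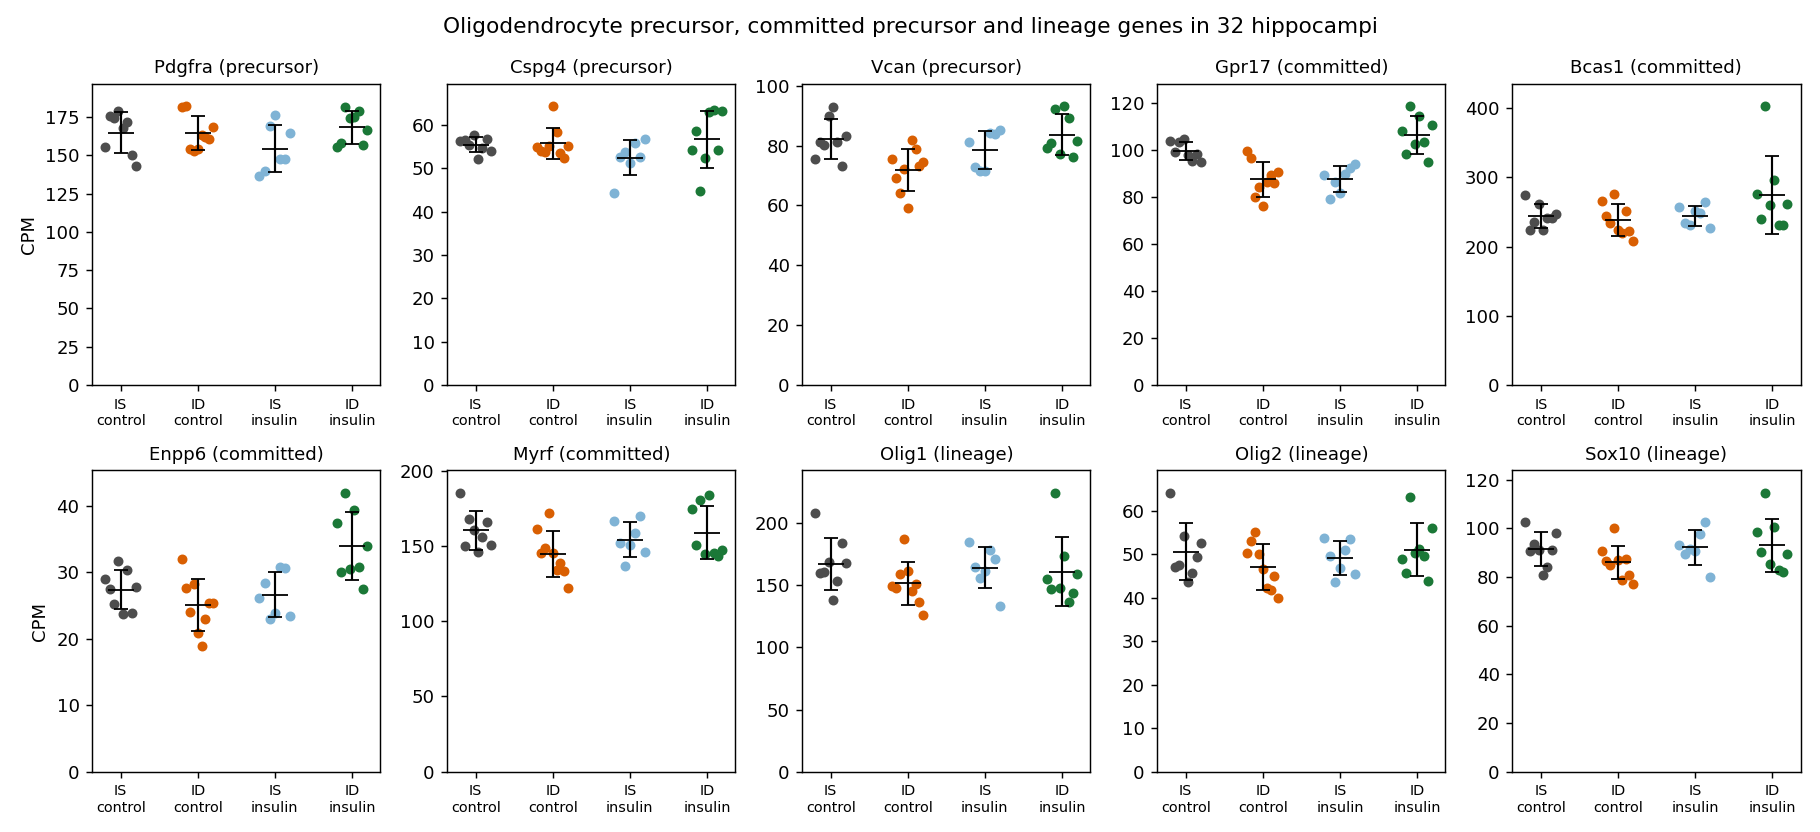
Level of each member (vertical axis, CPM, starting at 0) in each of the 32 libraries, by group along the horizontal axis. Points are libraries, horizontal lines group means and error bars SD. For Gpr17 the ID insulin points lie between 94.8 and 118.7 CPM, above all 7 IS insulin points, and 1 ID insulin point of Bcas1 sits alone at 403.3 CPM.

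The stretches before the start sites of Enpp6 and Vcan are shown because these genes of different stages both rose in the insulin-treated iron-deficient pups. Each run is the 250 bases upstream of the start site on the gene's own strand, from RefSeq's GRCr8 assembly, which is not the build the counts were made with. A promoter entry was found for 6 of the 10 members. The Enpp6 stretch is chr16:52026729-52026978 on the minus strand and the Vcan stretch, at the first of 2 listed start sites, chr2:22595956-22596205 on the minus strand.
Enpp6: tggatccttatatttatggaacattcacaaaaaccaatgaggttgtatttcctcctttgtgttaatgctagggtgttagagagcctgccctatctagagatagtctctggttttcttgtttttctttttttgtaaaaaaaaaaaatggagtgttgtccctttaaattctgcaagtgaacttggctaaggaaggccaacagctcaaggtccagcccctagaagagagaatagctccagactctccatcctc
Vcan: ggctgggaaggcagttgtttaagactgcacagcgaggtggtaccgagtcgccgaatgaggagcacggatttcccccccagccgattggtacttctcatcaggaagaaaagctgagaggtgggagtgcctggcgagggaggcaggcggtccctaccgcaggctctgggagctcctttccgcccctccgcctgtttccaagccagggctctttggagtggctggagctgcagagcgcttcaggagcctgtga
Letters of known motifs were searched on both strands in such windows, and as none matched here no letters are capitalised. The first SOX motif, ACAATG, is held by 11.1% of all 33469 entries of the table. The second SOX motif, AACAAT, which can overlap the first, is held by 10.3%. The E-box variant CAGATG occurs in 14%, the variant CATATG in 3.63% and the variant CAGCTG in 12% of entries. The TATA motif, TATAAA, occurs in 12.9%. Olig2 was the only member with a match, a TATA motif on the opposite strand at 223 to 218 bases before its start.

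The other 7 members did not pass the test between ID insulin and ID control. Bcas1 (ENSRNOG00000012906), whose protein marks oligodendrocytes that are starting to myelinate, had a log2 fold change of 0.21 (SE 0.08, adjusted p = 0.137 by edgeR's quasi-likelihood test). Its mean was 274.9 ± 56.6 CPM in ID insulin and 256.6 ± 24.6 CPM without replicate 3, against 238.4 ± 22.8 CPM in ID control (SD, n = 8, 7 and 9). Myrf (ENSRNOG00000028274), the transcription factor that switches on myelin genes, stood at 143.5 to 183.5 CPM in ID insulin and 121.9 to 172.1 CPM in ID control, and 3 of 8 insulin libraries were above all controls. For Myrf the log2 fold change was 0.14 (SE 0.06, adjusted p = 0.229). Of the 4 committed genes 2 thus passed and 2 had groups that overlapped widely.

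Precursor genes other than Vcan sat close to their control level. Pdgfra (ENSRNOG00000002244) had 155.1 to 181.6 CPM in ID insulin and 152.7 to 182.2 CPM in ID control, ranges that nearly coincide. Its log2 fold change was 0.03, with a 95% confidence interval of -0.08 to 0.15. Cspg4 (ENSRNOG00000017208) had 44.9 to 63.5 CPM against 52.4 to 64.4 CPM, with a log2 fold change of 0.03 and an interval of -0.09 to 0.14. Both intervals include 0.

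Among the lineage genes, which encode transcription factors present from precursor to mature cell, none passed. Olig1 (ENSRNOG00000028648), a basic helix-loop-helix factor, ran from 136.8 over 151.5 to 224.4 CPM in ID insulin and from 126.1 over 149.0 to 187.3 CPM in ID control. Olig2 (ENSRNOG00000028658), the related factor that sets up the lineage, ran from 43.7 over 50.02 to 63.2 CPM against 39.9 over 46.6 to 55.0 CPM. Sox10 (ENSRNOG00000011305), an HMG-box factor that keeps the lineage identity, ran from 82.2 over 89.9 to 114.6 CPM against 77.3 over 86.4 to 100.2 CPM. In each of the 3 the highest insulin library was replicate 3, and the medians of the groups lay close together. The log2 fold changes were 0.09 for Olig1 (interval -0.09 to 0.26), 0.12 for Olig2 (-0.04 to 0.27) and 0.11 for Sox10 (-0.01 to 0.24).

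**Figure D2:**
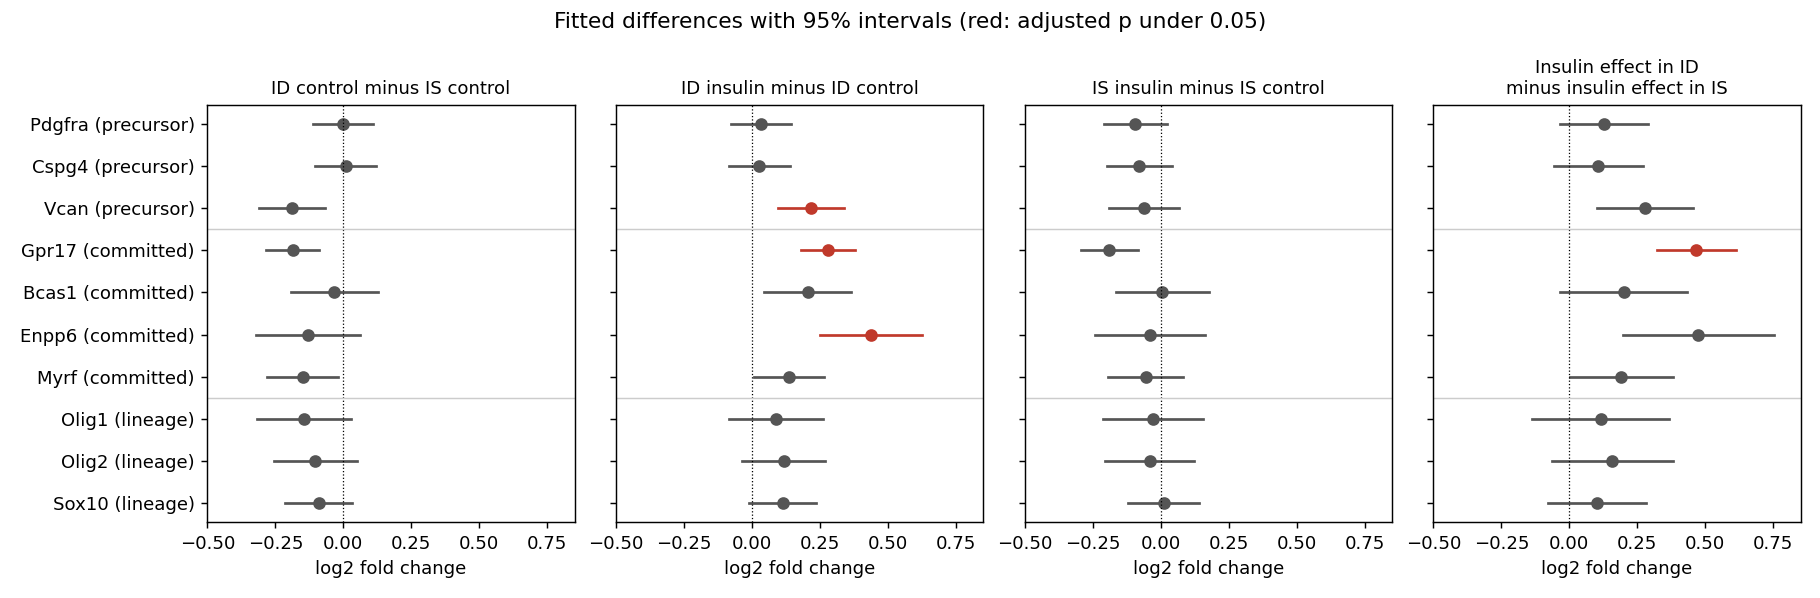
Log2 fold change of each member (horizontal axis) with its 95% confidence interval in 4 comparisons, members in rows by stage. Red marks an adjusted p under 0.05. In ID insulin minus ID control Vcan, Gpr17 and Enpp6 are red, and in the rightmost panel, the difference between the insulin effects, Gpr17 alone is red at 0.47.

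Markers of other cells were counted in the same comparison, in which 3.82% of all genes were called in either direction. Of 8 fibroblast markers 5 were lower in ID insulin than in ID control, Bgn by -0.43 and Aldh1a2 by -0.80 on the log2 scale, with summed levels of 364.3 to 649.4 CPM against 614.6 to 1004 CPM. Of 8 mural cell markers 1 was lower, Vtn (-0.48), with sums of 188.5 to 372.2 CPM against 270.7 to 385.9 CPM. Of 5 tested red blood cell genes 4 were higher, Hbb by 1.10, with sums of 392.3 to 2198 CPM against 379.8 to 982.5 CPM. Of 8 tested thalamic genes 2 were higher and 1 lower, with sums of 155.0 to 561.9 CPM against 145.5 to 214.2 CPM. Of 8 astrocyte markers 1 was lower, Gjb6 (-0.48), with sums of 3497 to 4557 CPM against 3228 to 4232 CPM. Of 6 microglial markers 1 was lower, Tmem119 (-0.28), with sums of 193.4 to 250.8 CPM against 209.4 to 247.5 CPM. Of 5 tested endothelial markers 1 was lower, Cdh5 (-0.37), with sums of 139.7 to 249.4 CPM against 240.1 to 266.5 CPM. Of 8 tested hippocampal markers 1 was lower, Wfs1 (-0.38), with sums of 2876 to 4367 CPM against 3729 to 4191 CPM. None of 7 neuronal markers passed, with 4902 to 7491 CPM against 6361 to 7640 CPM. Without replicates 3 and 5 neither Cdh5 nor Wfs1 was called, and 4 fibroblast markers were. No gene of these lists that was tested was at 0 in a whole group. With mean levels of genes of the blood, thalamus, meninges and choroid plexus as covariates, the log2 fold changes were 0.24 for Gpr17 (adjusted p = 0.207), 0.24 for Enpp6 (adjusted p = 0.517) and 0.14 for Vcan (adjusted p = 0.551), and none passed. In that fit 9 genes in all passed. The 5 fibroblast markers that were lower are also on the meninges list. The part of the mural, astrocyte, microglial, endothelial, hippocampal and neuronal markers in these results was not tested.

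Early iron deficiency alone was read from ID control against IS control. No member passed, where 0.291% of all genes did (45 of 15439, edgeR's quasi-likelihood test). At an unadjusted p under 0.05 were 3 members, Gpr17, Vcan and Myrf, as were 1830 of all genes. The log2 fold changes of 9 of the 10 members were negative, with a median of -0.12 (median of all genes 0.005). The summed level of 10 choroid plexus genes was 1214 to 5656 CPM in ID control and 18.7 to 3359 CPM in IS control. Mural sums were 270.7 to 385.9 CPM against 197.2 to 286 CPM. Endothelial sums were 240.1 to 266.5 CPM against 164.1 to 248.1 CPM. Astrocyte sums were 3228 to 4232 CPM against 3609 to 4403 CPM. Fibroblast sums were 614.6 to 1004 CPM against 400.2 to 785.5 CPM. None of the genes on these lists passed edgeR's test. Of 10 tested meninges genes 1 was higher in that test, Prelp (log2 fold change 0.57, adjusted p = 0.0487). Meninges sums were 384.3 to 798.5 CPM against 314.8 to 561.7 CPM. The part of the mural, endothelial and astrocyte markers was not tested.

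Gpr17 came nearest to the threshold in this comparison. IS control ran from 94.8 over 98.9 to 104.6 CPM, and 7 of the 9 ID control libraries lay below all of them. The log2 fold change was -0.19 (SE 0.05, adjusted p = 0.0946). DESeq2 and limma voom each called Gpr17, and no other member, in this comparison. Vcan ran from 73.1 over 81.1 to 93.0 CPM in IS control, and 5 of 9 ID control libraries were below that range (log2 fold change -0.19, SE 0.06, adjusted p = 0.166). Myrf ran from 146.0 over 158.2 to 185.3 CPM in IS control, with 6 of 9 ID control libraries below (log2 fold change -0.15, SE 0.06, adjusted p = 0.325).

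The remaining members lay nearer to each other. Enpp6 had 23.8 to 31.7 CPM in IS control and a log2 fold change of -0.13 (interval -0.32 to 0.06). Bcas1 had 223.9 to 274.3 CPM and -0.03 (interval -0.19 to 0.13). Pdgfra had 142.8 to 179.0 CPM, with no measurable shift (interval -0.11 to 0.11), and Cspg4 52.1 to 57.7 CPM (interval -0.10 to 0.12). For the lineage genes the log2 fold changes were -0.14 for Olig1, -0.10 for Olig2 and -0.09 for Sox10, each with an interval that includes 0.

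ID control is the only group made of libraries with different first title numbers, 5 with 69 and 4 with 70. Between these sets no member passed the test, against 0.22% of 15008 genes (33) in a fit of the 9 libraries alone. At an unadjusted p under 0.05 were 5 members and 1338 of all genes. Without overlap between the sets were Myrf and Olig2, as were 3.52% of all genes. Myrf was 145.0 to 172.1 CPM under number 69 and 121.9 to 138.5 CPM under number 70 (log2 fold change -0.23, adjusted p = 0.218). Olig2 was 46.6 to 55.0 CPM under 69 and 39.9 to 45.03 CPM under 70 (-0.27, adjusted p = 0.116). Both were lower under number 70, and DESeq2 called both. Gpr17 had near-identical means, 87.2 ± 10.3 CPM and 88.0 ± 2.27 CPM (SD, n = 5 and 4). Vcan went the other way, 68.0 ± 6.43 CPM and 77.0 ± 4.01 CPM, and its insulin effect was 0.29 (adjusted p = 0.0309) against set 69 and 0.12 (adjusted p = 0.432) against set 70.

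**Figure D3:**
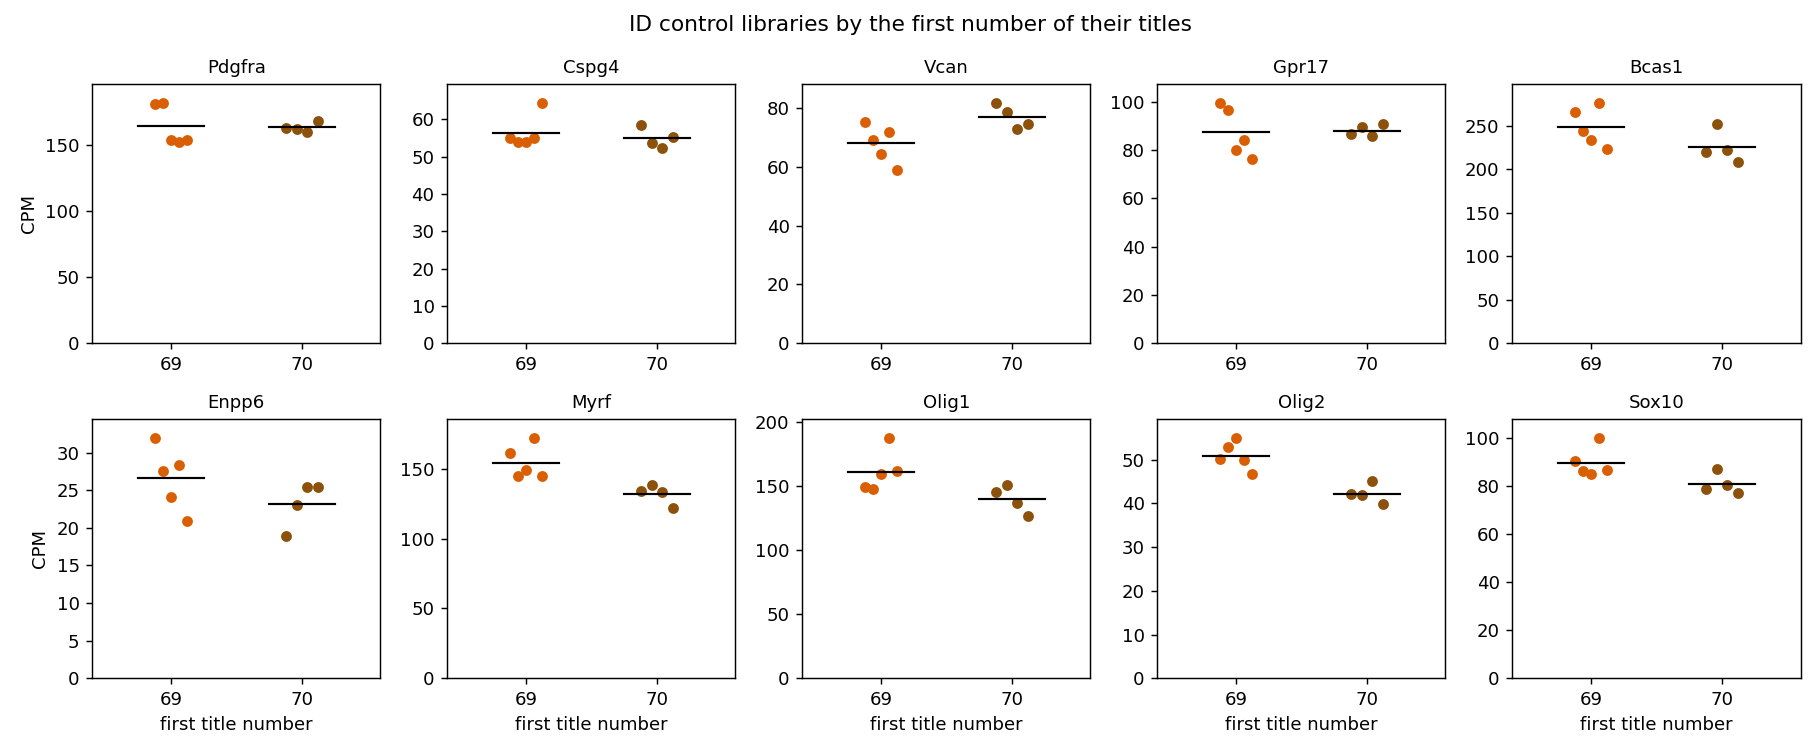
Level of each member (vertical axis, CPM, starting at 0) in the 9 ID control libraries, split by the first number of the sample title (69, 5 libraries; 70, 4 libraries). Points are libraries and lines are means. Myrf and Olig2 points of the 2 sets do not overlap, and the Gpr17 points of set 70 lie within the range of set 69.

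The effect of insulin under sufficient iron was read from IS insulin against IS control. No member passed the test, against 0.123% of all genes (19 of 15439, with 2515 at an unadjusted p under 0.05). Among the members only Gpr17 had an unadjusted p under 0.05. It ran from 79.0 over 89.4 to 94.2 CPM in IS insulin, below the whole IS control range of 94.8 to 104.6 CPM. Groups without such overlap were found for 0.369% of all genes, and for 1 of 10 members. The means were 87.5 ± 5.56 CPM and 99.7 ± 3.82 CPM (SD, n = 7 and 8), a log2 fold change of -0.19 (SE 0.05, adjusted p = 0.0999 by edgeR's quasi-likelihood test), and DESeq2 called it. The direction is opposite to that in iron-deficient pups.

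Enpp6 and Vcan gave no such shift in iron-sufficient pups. Enpp6 had 23.1 to 30.9 CPM in IS insulin, a log2 fold change of -0.04 (interval -0.24 to 0.16). Vcan had 71.4 to 85.2 CPM, a log2 fold change of -0.06 (interval -0.19 to 0.07). Pdgfra was 136.2 to 176.4 CPM and Cspg4 44.4 to 56.8 CPM, with log2 fold changes of -0.09 and -0.08. Bcas1 (0.01), Myrf (-0.05), Olig1 (-0.03), Olig2 (-0.04) and Sox10 (0.01) had log2 fold changes close to 0, with intervals that include it.

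Whether insulin acted differently under the 2 diets was tested as an interaction, the insulin effect in iron-deficient pups minus that in iron-sufficient pups. Gpr17 was the member that passed, 1 of 10 where 0.939% of all genes did. Its difference was 0.47 on the log2 scale (SE 0.07, 95% confidence interval 0.32 to 0.61, adjusted p = 0.00244 by edgeR's quasi-likelihood test). Enpp6 had a difference as large, 0.47, but less certain (interval 0.20 to 0.75, adjusted p = 0.0705), and Vcan 0.28 (interval 0.10 to 0.46, adjusted p = 0.0917). All 10 differences were positive, and the members' median was 0.18 beside -0.01 over all genes. By stage the medians were 0.13 for precursor, 0.33 for committed and 0.12 for lineage genes. Gpr17 was also called with either title set of ID control alone (0.47 and 0.46) and without ID insulin replicates 3 and 5 (0.42). With the tissue covariates it was 0.41 and missed the threshold (adjusted p = 0.0575).

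The insulin groups were then compared directly across diets. ID insulin exceeded IS insulin in Gpr17 with no overlap: all 8 ID insulin libraries (94.8 to 118.7 CPM) were above all 7 IS insulin libraries (79.0 to 94.2 CPM). The log2 fold change was 0.28 (SE 0.05, adjusted p = 0.00326 by edgeR's quasi-likelihood test; 0.22 with adjusted p = 0.209 under the tissue covariates). It was 1 of 10 members called, against 2.45% of all genes, and 1 of 10 without overlap, against 0.44%. Enpp6 stood just outside the threshold (log2 fold change 0.34, SE 0.10, adjusted p = 0.0511), and it was called by DESeq2. Of its 8 ID insulin libraries 4 were above all IS insulin libraries. Between ID insulin and IS control no member passed, against 3.35% of all genes (517, with 3141 at an unadjusted p under 0.05). Unadjusted, 2 members were under 0.05, Enpp6 and Bcas1. Enpp6 was nearest, at 0.31 (interval 0.11 to 0.50, adjusted p = 0.0607), and DESeq2 called it. The log2 fold change from IS control was 0.09 for Gpr17 (interval -0.01 to 0.19) and 0.03 for Vcan (interval -0.10 to 0.15). These comparisons use the same libraries as those above and are not separate evidence.

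In order of their means, Gpr17 was lowest in IS insulin and ID control (87.5 and 87.6 CPM), which did not differ beyond their spread, then IS control (99.7 CPM), then ID insulin (106.3 CPM). Enpp6 was highest in ID insulin (33.9 CPM), and the 3 other groups, 25.1 to 27.4 CPM, did not differ beyond their spread. Vcan had its lowest mean in ID control (72.0 CPM), then IS insulin (78.6 CPM), IS control (82.1 CPM) and ID insulin (83.7 CPM), and all 4 ranges overlapped. As a description of the balance between stages, the mean log2 CPM of the committed genes minus that of the precursor genes was 0.16 ± 0.10 for IS control (SD, n = 8) and 0.10 ± 0.14 for ID control (n = 9). It was 0.17 ± 0.13 for IS insulin (n = 7) and 0.27 ± 0.18 for ID insulin (n = 8). All 4 ranges overlapped, and the highest value, 0.60, belonged to ID insulin replicate 3, with 0.44 next. Within groups, as described below, precursor genes varied little together, Pdgfra followed fibroblast markers and Cspg4 mural markers. The part of such cells in this balance was not tested.

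How members varied together was examined within groups, after the 4 group means of log2 CPM were removed, over all 32 libraries. Libraries share their depth and tissue make-up, so members can move together through either. The committed genes Bcas1, Myrf and the lineage genes formed a tight block. Olig1 and Sox10 had Pearson r 0.88 and Spearman rho 0.81 (permutation p = 1e-05 for each, the smallest that 100000 resamples can give, adjusted p = 7.50e-05 for r over 45 pairs), and r was 0.83 without the 2 libraries farthest in Olig1. The median r was 0.76 within the lineage stage, 0.595 within the committed stage and 0.66 between these stages. Precursor genes stood apart from the block: their median r was 0.06 among themselves and -0.16 with the lineage genes.

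Gpr17 correlated with some genes of its own stage and of the precursor stage. It did so with the precursor gene Vcan (r 0.59, rho 0.53, permutation p = 0.00117 and 0.00335, adjusted p = 0.00351 and 0.01; r 0.55 without the 2 farthest libraries). With Pdgfra r was 0.46 and rho 0.47 (permutation p = 0.00786 and 0.00854, adjusted p = 0.0196 and 0.0213; r 0.55 without the 2 farthest). With its stage partner Enpp6 r was 0.57 and rho 0.54 (permutation p = 0.00233 and 0.00391, adjusted p = 0.00655 and 0.0110; r 0.46 without the 2 farthest). With Bcas1 r was 0.53 and rho 0.49 (permutation p = 0.00362 and 0.00783, adjusted p = 0.00958 and 0.0207; r 0.51 without the 2 farthest). With Myrf r was 0.37, with the precursor gene Cspg4 -0.16, and with the lineage factors 0.18 for Olig1, 0.35 for Olig2 and 0.34 for Sox10, and none of these passed.

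Members were also set against the summed level of marker lists, 40 relations in all. Bcas1 followed the myelin list most closely (r 0.92, rho 0.90, permutation p = 1e-05 for each, adjusted p = 8.00e-05 for r; r 0.87 without the 2 farthest libraries), and Myrf nearly so (r 0.87, rho 0.91). Gpr17 followed it weakly (r 0.42, rho 0.43, permutation p = 0.0308 and 0.0234, adjusted p = 0.077 and 0.0669), and Pdgfra (r -0.09) and Vcan (r 0.12) did not follow it measurably. Cspg4 followed the mural cell markers instead (r 0.78, rho 0.69, permutation p = 1e-05 and 2.00e-04, adjusted p = 8.00e-05 and 0.00114; r 0.70 without the 2 farthest). Pericytes, the mural cells of small vessels, are known to carry NG2 too. Pdgfra followed the fibroblast list (r 0.56, rho 0.56, permutation p = 0.00203 and 0.00232, adjusted p = 0.00812 and 0.0103; r 0.45 without the 2 farthest), and fibroblasts of the meninges are a known second source of Pdgfra. The proliferation list was followed by Bcas1 (r 0.61), Enpp6 (0.58), Sox10 (0.55), Gpr17 (0.51), Myrf (0.48) and Olig1 (0.47), all with an adjusted permutation p for r under 0.05. Cspg4 ran against it (r -0.50, adjusted p = 0.0325). By rho neither Olig1 nor Cspg4 passed. Without the 2 farthest libraries r was 0.42 for Bcas1, 0.54 for Enpp6, 0.37 for Sox10, 0.43 for Gpr17, 0.44 for Myrf, 0.29 for Olig1 and -0.19 for Cspg4.

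**Figure D4:**
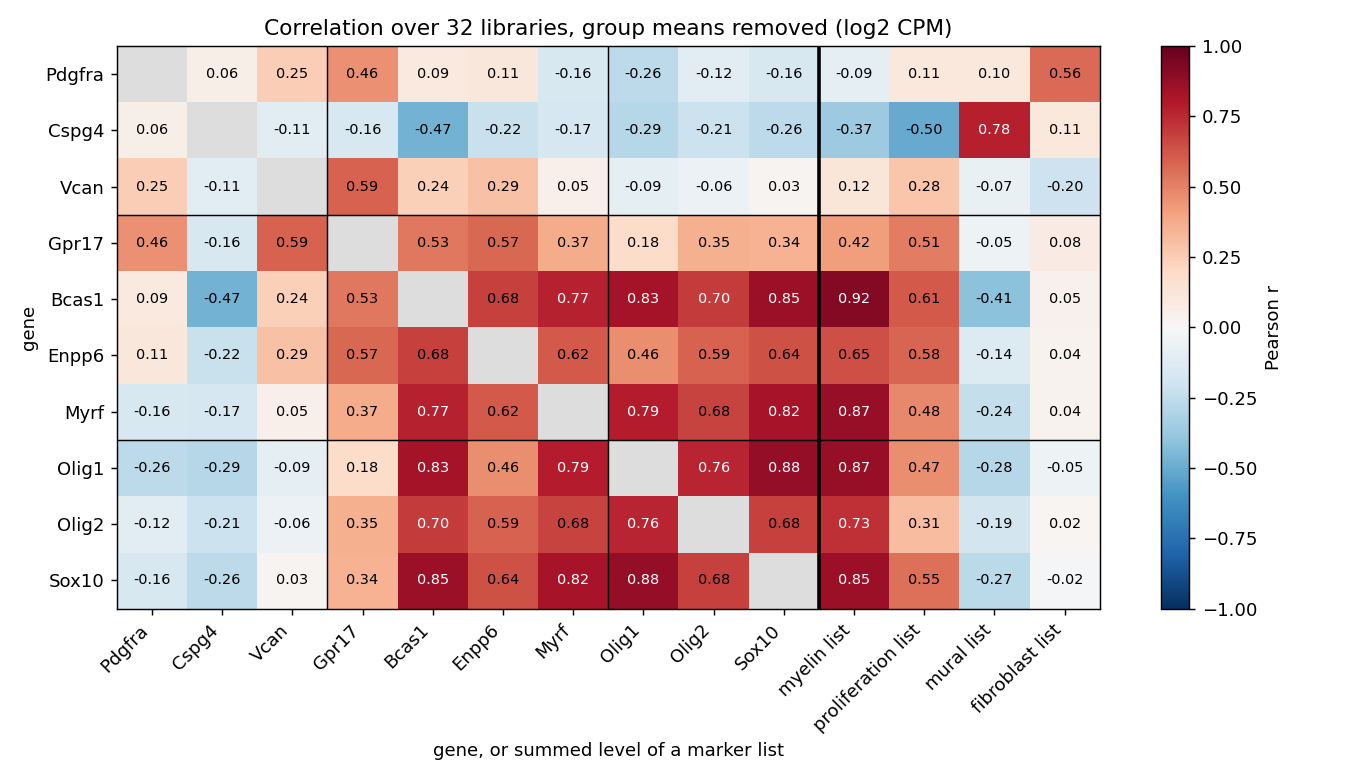
Pearson r between members (left 10 columns, by stage) and between members and the summed level of 4 marker lists (right 4 columns), over 32 libraries with group means removed. Red is positive and blue negative. The committed and lineage genes other than Gpr17 form a red block with the myelin list, and Cspg4 is deep red only with the mural list (0.78). Among the members, Gpr17 is reddest with Vcan, Enpp6, Bcas1 and Pdgfra.

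By likeness of pattern over the same 32 libraries among 11986 genes, those closest to Gpr17 were Myo6 (r 0.82), Gdf11 (0.78), Rbpj (0.78), Epb41l2 (0.78) and Reep3 (0.77). Closest to Pdgfra were Rassf2 (r 0.80), Rest (0.79), Add3 (0.79), Gna13 (0.75) and Nek9 (0.75). Among those closest to Olig2 were S1pr5 (r 0.80), Unc5b (0.79), Fam107b (0.77) and Mobp (0.75). None of these 14 genes passed the test in any of the comparisons of control groups or of insulin within a diet.

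Other genes of the lineage were counted on lists in the comparison of ID insulin with ID control, in which 3.82% of all genes were called. A count of 1 in lists of this size is little above that share. Of 15 further committed genes 4 were higher (median log2 fold change 0.23), among them Itpr2, an intracellular calcium channel (0.44, SE 0.10, adjusted p = 0.0106), Tmem163, a zinc transporter (0.43, SE 0.09, adjusted p = 0.00652), and Nfasc, an adhesion molecule of axon and glia contacts (0.24, SE 0.06, adjusted p = 0.0144). Without ID insulin replicates 3 and 5 the count was 2, Itpr2 and Tmem163, and the median 0.08. Of 14 further precursor genes 1 was higher (median 0.17), the protocadherin gene Pcdh15 (0.29, adjusted p = 0.0444), and without these replicates 0 (median 0.13). The differentiation regulators gave 1 of 19, the homeobox gene Nkx2-2 (0.46, adjusted p = 0.028), also on the committed list, and without these replicates 0.

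Myelin genes belong to the stage after the members. Of 18 myelin genes 1 was higher and 1 lower, beside 3.82% of all genes called (median 0.14, and 0.02 without replicates 3 and 5). Ugt8, which makes the lipid galactocerebroside, rose by 0.31 (adjusted p = 0.0456) but was at 0.20 (adjusted p = 0.231) without replicates 3 and 5. Mal, a myelin membrane proteolipid, fell from 536.0 ± 73.7 CPM to 384.2 ± 75.5 CPM (SD, n = 9 and 8), a log2 fold change of -0.48 (SE 0.11, adjusted p = 0.0116). It was -0.58 (adjusted p = 0.00888) without replicates 3 and 5. Mal also had a negative interaction, -0.74 (SE 0.16, adjusted p = 0.0242), opposite in sign to that of Gpr17.

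Growth factors and receptors through which precursors are steered were counted next. Of 13 ligands and 15 receptors, Pdgfra among the latter, 0 passed between ID insulin and ID control in edgeR's test and 0 with DESeq2, while 1 ligand and 2 receptors had an unadjusted p under 0.05. The medians were -0.01 and 0.01. Between ID insulin and IS insulin 1 of 13 ligands was higher, beside 2.45% of all genes called. It was Igf1 (0.48, SE 0.12, adjusted p = 0.0287, and 0.37 with adjusted p = 0.0776 without replicates 3 and 5). Of 10 proliferation genes 2 were higher in ID insulin than in ID control, beside 3.82% of all genes called. Mki67, made by dividing cells, was 10.6 ± 0.91 CPM against 7.30 ± 1.23 CPM (SD, n = 8 and 9; log2 fold change 0.54, SE 0.10, adjusted p = 0.00254), and Cenpf, a protein of the centromere in dividing cells, had a log2 fold change of 0.49 (SE 0.12, adjusted p = 0.0161). Mki67 was still called without replicates 3 and 5 (0.51, adjusted p = 0.0104), and Cenpf was not (0.37, adjusted p = 0.0866). In the interaction Mki67 was 0.88 (adjusted p = 0.00433), Cenpf 0.84 (adjusted p = 0.0242), Itpr2 0.68 (adjusted p = 0.0236), Nfasc 0.36 (adjusted p = 0.0278) and Tnr, a matrix protein gene of the precursor list, 0.52 (adjusted p = 0.0242). With the tissue covariates none of these, nor any other of the 15439 genes, passed the interaction, and with the replicate block 9 genes in all passed. In bulk tissue the proliferation transcripts come from any dividing cell, and their source was not tested. Between ID insulin and IS insulin, Itpr2 (0.44, adjusted p = 0.0227), Tnr (0.35, adjusted p = 0.0225), Mki67 (0.67, adjusted p = 9.10e-04), Cenpf (0.78, adjusted p = 0.00139) and Top2a (0.47, adjusted p = 0.0368) were higher. Without replicates 3 and 5 Top2a was at 0.41 and no longer called (adjusted p = 0.0795). Mal (-0.68, adjusted p = 0.00166) and Plekhb1, another myelin gene (-0.42, adjusted p = 0.0429), were lower there.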

How the data were processed

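RNA from 1 hippocampus of each of 32 rat pups was sequenced, and the authors deposited raw read counts per gene. The tools named by the submitters' processing notes are Trimmomatic 0.40, FastQC, HISAT2 2.1.0 (an aligner), featureCounts (a read counter) and edgeR, with no settings. A rat and a mouse genome build are listed with no role. Strand use and the treatment of reads with several matches are not given in the sources used here, so overlapping genes are uncertain. The depth of 19619345 to 28062630 counts per library limits the precision of low genes most. No coordinates of the authors' build were used.

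Counts were analysed in R 4.3.3 with edgeR 4.0.16: TMM scaling, filterByExpr by group (15439 of 32883 rows kept; 9663 had no count), and the quasi-likelihood F-test (two-sided, the tool's current, not legacy, method) with 1 coefficient per group over all 32 libraries, leaving 28 residual degrees of freedom. Every p-value marked adjusted for a group comparison, on members and on other genes, was adjusted by Benjamini-Hochberg over all tested genes, with 0.05 as the threshold. Each SE of a log2 fold change was back-calculated, as its absolute value divided by the square root of F. The 95% confidence intervals use this SE with the 28 residual degrees of freedom, not the moderated ones of the test. CPM values use the scaled totals, and log2 CPM a prior count of 2. Inside ID control, title numbers 70 and 69 were contrasted in their own fit. Correlations were tested two-sided by permuting libraries within groups (100000 resamples), and adjusted over 45 member pairs or 40 member and list relations. Groups came from the labels, replicates were numbered in accession order, and no 2 libraries of a group agreed within sampling noise (smallest chi-square per gene 5.77). The test was tried on simulated counts.

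All 10 members were named whatever their result. Of the other lists up to 3 called genes per list and direction were named, those with the lowest adjusted p, and for Pdgfra, Gpr17 and Olig2 the 5 most alike genes whose mean log2 CPM reached 1; 1 gene this rule gave is not reported here. Members, lists and rules were chosen with earlier results of these data known. Some genes stood on more than 1 list (Pdgfra, Nkx2-2, Bmp4, Sox6, Sox8, Tcf7l2, Zfp488, P2ry12, Fgfr3 and Slc17a7), and the fibroblast and meninges lists share most of their genes. The alternatives were DESeq2 (version 1.42.0), its size factors in edgeR, other count filters, the compared groups alone, limma voom (limma 3.58.1), a block by second title number, Y-linked genes as a covariate, either title number of ID control alone, tissue lists as covariates, removal of ID insulin replicates 3 and 5 and of each library in turn, and, chosen after seeing the data, the earlier quasi-likelihood method.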

Additional observations from a re-analysis of the deposited data

Results flagged for a closer look

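The insulin effect on Gpr17 differed between the diets by 0.4674 on the log2 scale in the interaction test. It was positive in iron-deficient pups (0.28) and negative in iron-sufficient pups (-0.19), and the second of these effects alone did not pass its test.

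Among 40 sets of values, 10 members in each of 4 groups, 3 held a library that passed Dixon's criterion. That is near the 5% of sets that chance gives. Bcas1 in ID insulin replicate 3 was 403.3 CPM with 297.0 CPM next. Olig1 in the same library was 224.4 CPM with 173.5 CPM next. This library also had the lowest mural (188.5 CPM) and endothelial (139.7 CPM) sums of its group. Cspg4 in ID control replicate 5 was 64.39 CPM with 58.47 CPM next, and that library had the highest mural sum of its group, 385.9 CPM.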

How the results depend on the processing

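The fold changes of called members kept their direction under every alternative run. Without ID insulin replicates 3 and 5 the median log2 fold change of the lineage members went from 0.01 to -0.07 between ID insulin and IS insulin and from 0.01 to -0.05 between ID insulin and IS control. That of the myelin list went from 0.09 to -0.07 in the latter comparison and from 0.01 to -0.14 in the interaction. The number of members called between ID control and IS control was 0, and 1 with DESeq2 and with limma voom (0 to 1 with each library left out; Gpr17 was called without ID control replicate 1 or 2). Between ID insulin and ID control it was 3, and 0 with the tissue lists as covariates (2 to 3 with each library left out). It was 2 without a count filter, with the compared groups alone, limma voom, the block, title number 70 alone or replicates 3 and 5 removed (Vcan lost), and with title number 69 alone (Enpp6 lost). Between IS insulin and IS control it was 0, and 1 with DESeq2 (0 with each library left out). Between ID insulin and IS insulin it was 1, with 2 under DESeq2 and under a filter of 1 CPM in 7 libraries and 0 with the tissue covariates (1 to 2 with each library left out). The second gene there was Enpp6, also without ID control replicate 1, 5 or 6, IS control replicate 5, IS insulin replicate 5 or 6, or ID insulin replicate 2 or 7. Between ID insulin and IS control it was 0, and 1 with DESeq2 (0 to 1, Enpp6 without ID insulin replicate 7). For the interaction it was 1, with 2 under DESeq2, limma voom and title number 70 alone and 0 with the tissue covariates (1 to 2, Enpp6 joining without ID control replicate 1). Between title numbers 70 and 69 it was 0, and 2 with DESeq2 (0 with each library left out).

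Same-numbered libraries did not vary together by the second title number (40 pairs, r from -0.274 to 0.286, median -0.01, 9 over 0.1), so the replicate block rests on a shared number alone. With this block 2 members were called between ID insulin and ID control, Vcan being at 0.20 (adjusted p = 0.0793), and in the 5 other comparisons fitted with it the number was as without it. The count of all genes called moved more than that of the members. For ID insulin against ID control it went from 589 to between 9 (tissue covariates) and 819 (DESeq2), and to between 323 and 806 with a library left out. For ID control against IS control it went from 45 to between 14 and 242, for IS insulin against IS control from 19 to between 0 and 206, and for the interaction from 145 to between 0 and 491. For ID insulin it went from 378 to between 22 and 723 against IS insulin, and from 517 to between 3 and 855 against IS control. Between title numbers it was 33 and, with DESeq2, 165. Gpr17 kept its 3 calls in all 32 fits with a library left out. Enpp6 kept its call against ID control in all 32, and Vcan in 24.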
